A study of Homo sapiens with 6 samples.

Results

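Cellular iron handling was examined through 10 genes, TFRC, SLC11A2, SLC40A1, FTH1, FTL, IREB2, ACO1, FBXL5, NCOA4 and STEAP3, in human iPSC-derived neurons with and without isoproterenol, an agonist of beta-adrenergic receptors. TFRC was chosen because its level fell in this very comparison, so its values are given as a description with no test. The other 9 genes were chosen by function, as genes of iron uptake, storage, export and sensing, but with earlier results of these data known. All 10 were among the 19823 genes of the table, and all 10 passed the filter on low reads that left 18130 genes for testing. The neurons were glutamatergic cells differentiated from the parental WTc11 induced pluripotent stem cell line, a clonal line that carries the CRISPR interference repressor dCas9-KRAB and a doxycycline-inducible NGN2 transgene and uses its native receptors. RBM12, an RNA-binding protein whose part in adrenergic signalling was the subject of the study, was knocked down in every sample, the untreated ones included. There were 3 untreated and 3 isoproterenol-treated samples, and the labels give neither the dose nor the duration of the treatment. No label says that the 3 samples of a group came from separate cultures, so p-values measure only the spread between these samples, which may be technical.

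Cells take up iron bound to transferrin through the transferrin receptor, reduce and move it out of the endosome, and then use it, store it in ferritin or export it. The iron regulatory proteins sense cytosolic iron and bind iron-responsive elements, short RNA hairpins whose loop begins with CAGNG. Binding in a 5′ UTR blocks translation of an mRNA such as a ferritin mRNA, while binding in the 3′ UTR of TFRC protects that mRNA from cleavage, so the TFRC mRNA is stable when iron is low. Neurons depend on this pathway for mitochondrial enzymes and for the synthesis of neurotransmitters.

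The hairpins are shown because they are the sequence feature that joins TFRC to the ferritins and to the exporter. They were looked for in the MANE Select transcript of each gene (GENCODE 44, GRCh38), on the transcript strand, as an unpaired C, 5 paired bases, the loop CAGNGN and the 5 bases that pair with the first, with at least 4 of 6 further flanking pairs and with G to T pairs allowed. TFRC held 5 such matches of 29 bases, all in its 3′ UTR on the minus strand of chromosome 3. In 5′ to 3′ order along the mRNA they lie at chr3:196051029-196051057, chr3:196050979-196051007, chr3:196050575-196050603, chr3:196050510-196050538 and chr3:196050463-196050491. FTH1 (chr11:61967574-61967602, minus strand), FTL (chr19:48965335-48965363, plus strand) and SLC40A1 (chr2:189580661-189580689, minus strand) each held 1 match in the 5′ UTR. STEAP3 held 1 match in its 3′ UTR (chr2:119263771-119263799, plus strand). Capitals mark the loop.
TFRC match 1: atttatcagtgaCAGAGTtcactataaat
TFRC match 2: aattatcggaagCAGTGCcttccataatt
TFRC match 3: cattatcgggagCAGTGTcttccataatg
TFRC match 4: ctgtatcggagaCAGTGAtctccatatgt
TFRC match 5: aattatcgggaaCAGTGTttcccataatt
FTH1 match: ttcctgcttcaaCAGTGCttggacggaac
FTL match: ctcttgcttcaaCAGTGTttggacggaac
SLC40A1 match: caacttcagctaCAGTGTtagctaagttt
STEAP3 match: ccaaggctcttgCAGAGCtagggctctga

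Of 19061 MANE Select transcripts searched in the same way, 102 (0.535%) held a match that touched a UTR, and TFRC was the 1 transcript with more than a single such match. The FTH1 and FTL matches had the same base at 26 of 29 positions. The TFRC matches had 16 to 25 positions in common with one another, and 9 to 13 with the ferritin matches, the CAGNG letters of the loop included. SLC11A2, IREB2, ACO1, FBXL5 and NCOA4 held no match in the transcript searched, which says only that this pattern is not in that transcript. A match is a description of the letters, and binding was not measured.

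**Figure D1:**
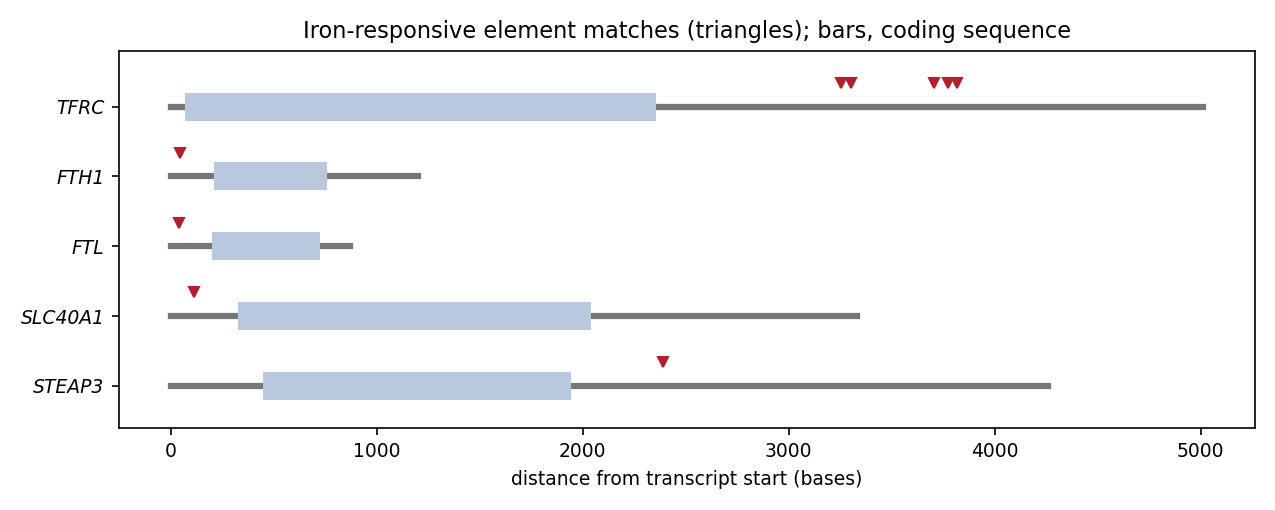
Position of each hairpin match (triangles) along the MANE Select transcripts of the 5 genes that hold one, in bases from the transcript start, with the coding sequence drawn as a thicker bar. The 5 TFRC matches sit in the 3′ UTR, the matches of FTH1, FTL and SLC40A1 in the 5′ UTR, and that of STEAP3 in the 3′ UTR.

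Depth was similar among the libraries, with 18116816 to 21488793 reads assigned to genes per library. Mitochondrial transcripts took 3.44% to 4.54% of them. All 10 listed neuron markers were in the table, and several, such as MAP2 and NEFL, mark neurons of other kinds too. Their summed level was 411319 to 423980 normalized counts in untreated and 403746 to 415291 in treated samples. The sum was mostly NEFL (275114 to 294712), and TUBB3, named after its values were seen, was the lowest at 69.2 to 94.4. The vesicular glutamate transporter genes SLC17A6 and SLC17A7 stood at 12393 to 14710 and at 2968 to 3318 over all samples. The summed level of the 2 astrocyte markers in the table was 159.8 to 175.1 untreated and 134.4 to 156.8 treated, and that of the 2 oligodendrocyte markers, nearly all MBP, was 922 to 959.98 and 986 to 1095. The 2 pluripotency markers summed to 19.4 to 19.8 and 14.4 to 28.8, and the 1 proliferation marker in the table, CCNB1, stood at 112 to 147 and 123 to 145. Their part in the results was not tested. RBM12 itself stood at 244, 279 and 267 normalized counts untreated and 194.6, 238 and 233 treated. It was lower in all 3 pairs and its groups did not overlap. The log2 fold change was -0.25 (limma adjusted p = 0.607, 0.131 with the block). RBM12 shares 575 exonic bases with CPNE1 on the same strand. Every sample carried the knockdown, so no sample here checks it.

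TFRC, the receptor for iron-loaded transferrin (GRCh38 chr3:196012511-196082153, minus strand), was lower in every treated sample. It stood at 1152, 1463 and 1301 normalized counts in the untreated samples (replicates 1, 2 and 3 in turn, as in every sentence of this kind) and at 711, 790.0 and 804 in the treated ones. The groups did not overlap, and untreated replicate 1 was the lowest of its group while treated replicate 1 was the lowest of the other. The mean was 1305 ± 156 (SD, n = 3) untreated and 769 ± 49.95 (SD, n = 3) treated, so the treated mean was 58.9% of the untreated one. The fitted log2 fold change was -0.76 on the scale log2(normalized count + 1).

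Within the pairs of samples that share a replicate number, the treated level of TFRC was 61.8%, 54.0% and 61.8% of the untreated one, or -0.69, -0.89 and -0.69 on the log2 scale. The fall thus appeared in each pair, and it was greatest in the pair with the highest untreated level. TFRC rested on 685 to 1512 reads per library. Among the 11587 genes whose mean was 100 normalized counts or more, 1 gene had a lower log2 fold change than TFRC. Among all 18130 genes tested, 151 had a lower one. This place rests on the value for which TFRC was chosen and is a description only. These measurements come from bulk RNA, in which fewer cells of a type and less RNA per cell cannot be told apart. A long noncoding RNA on the opposite strand overlaps 191 exonic bases of TFRC and was not analysed here.

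**Figure D2:**
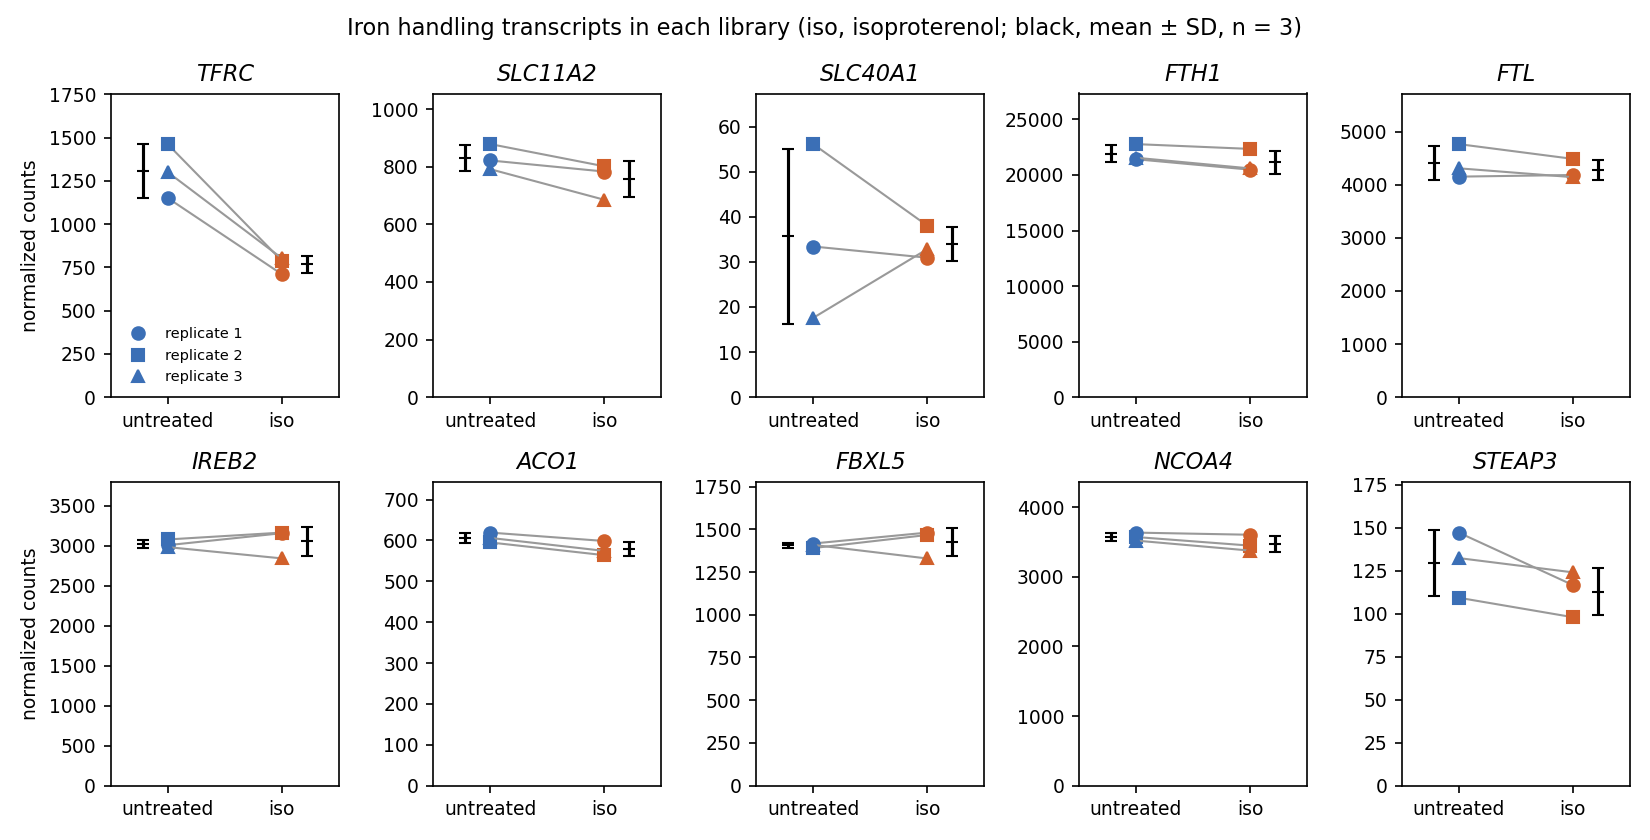
Normalized counts of each of the 10 genes in the 3 untreated and 3 isoproterenol-treated samples, with lines joining samples of the same replicate number and black bars for the mean ± SD (n = 3). The TFRC lines all fall, from between 1152 and 1463 to between 711 and 804, and the groups of the other 9 genes overlap.

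The question for the other 9 genes was whether any of them also differed with isoproterenol. None passed a false discovery rate of 0.05 in the limma fit across all genes, where 0.0165% of all genes tested passed, and 0 of 9 had an unadjusted p under 0.05, against 7.68% of all genes. Their groups did not overlap in 0 of 9, against 12.9% of all genes. Of the 9, 3 were higher and 6 lower, where 49.5% of all genes were lower. Their median log2 fold change was -0.044, beside a median of 0.0015 over all genes. With the replicate number as a block, which makes use of the pairs, 0 of 9 passed where 4.88% of all genes did, and 2 of 9, SLC11A2 and FTH1, had an unadjusted p under 0.05, against 16.2%. edgeR and DESeq2, run on the recovered reads, also called 0 of 9. Over all genes edgeR called 0.0165% without and 5.39% with the block, and DESeq2 0.116% and 0.789%. In 5 of the 9 the treated level was lower in all 3 pairs, against 17.6% of all genes.

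Among the uptake genes, SLC11A2 encodes DMT1, which moves ferrous iron out of the endosome (chr12:50979401-51028566, minus strand). Its level was 822, 879 and 791 normalized counts untreated and 783, 802 and 685 treated. Each treated sample was below its untreated partner, but the groups overlapped. The log2 fold change was -0.14 (SE 0.072, 95% confidence interval -0.29 to 0.014), with a limma adjusted p of 0.680, and with the block of 0.158. With the block the interval, not adjusted for the number of genes, ran from -0.25 to -0.027.

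STEAP3, the endosomal reductase that turns ferric into ferrous iron (chr2:119223831-119265652, plus strand), was a low transcript at 85 to 141 reads per library. Its level was 147, 109 and 132 normalized counts untreated and 117, 98.0 and 124 treated. Each treated sample was below its untreated partner and the groups overlapped. The log2 fold change was -0.19 (SE 0.15, 95% confidence interval -0.51 to 0.12, limma adjusted p = 0.803). The antisense gene STEAP3-AS1 overlaps 500 of its exonic bases and was itself at 1.94 to 6.15 normalized counts.

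The ferritins had the highest counts of the 9. FTH1, the heavy chain that oxidizes iron as it enters the ferritin shell (chr11:61959718-61967634, minus strand), stood at 21418, 22779 and 21551 normalized counts untreated and 20480.3, 22348 and 20592 treated. Treated replicate 2 was above untreated replicates 1 and 3, so the groups overlapped, although each treated sample was below its partner. The log2 fold change was -0.053 (SE 0.038, limma adjusted p = 0.783, with the block 0.0611). Its 95% confidence interval without the block, expressed as a difference from the untreated level, ran from -8.76% to 1.89%. With the block the interval, not adjusted for the number of genes, ran from -5.87% to -1.23%.

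FTL, the light chain that helps the iron core to form (chr19:48965309-48966879, plus strand), stood at 4154, 4767 and 4311 normalized counts untreated and 4185, 4488 and 4144 treated. The treated level was lower in 2 of 3 pairs and the groups overlapped. The log2 fold change was -0.044 (SE 0.051, limma adjusted p = 0.882), and the interval of the difference ran from -9.97% to 4.47%.

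The ratio of FTH1 to FTL, taken per kilobase of the MANE Select transcript, does not depend on the scaling between libraries. It was 3.73, 3.46 and 3.62 untreated and 3.54, 3.60 and 3.60 treated. The treated values lay inside the untreated range. The mean log2 difference was -0.0083 with an exact two-sided permutation p of 0.8, where 3 samples against 3 can give no p below 0.1. The ratio of TFRC to FTH1 on the same scale, which inherits the choice of TFRC, was 0.0129, 0.0154 and 0.0145 untreated and 0.00834, 0.00848 and 0.00937 treated.

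Ferritin genes have many near-identical processed copies, and how reads matching several places were counted is not given in the sources used here, so the ferritin levels are uncertain to that extent. The 15 FTH1 pseudogenes in the table summed to 3.42% to 4.63% of the FTH1 level, and the 2 FTL pseudogenes to 1.07% to 1.71% of FTL. Of the 17, 13 were tested, and 3 were higher and 10 lower with a median log2 fold change of -0.20. By limma 0 of 13 passed, against 0.0165% of all genes, and 1 of 13 had an unadjusted p under 0.05, against 7.68%. With the block 0 of 13 passed, against 4.88%. The most abundant, FTH1P2, had a log2 fold change of -0.38, and its treated level was 100.8%, 51.0% and 87.3% of the untreated one in pairs 1, 2 and 3. Without the block the adjusted p was 0.595 in limma, 0.551 in edgeR and 0.909 in DESeq2. With the block it was 0.0688 in limma, 0.0428 in edgeR and 0.999 in DESeq2. The next in level were FTH1P8 and FTH1P11, with log2 fold changes of -0.083 and -0.28. FTH1 also shares 1267 exonic bases with BEST1 on the opposite strand, which stood at 75.2 to 123 normalized counts.

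NCOA4, the cargo receptor that carries ferritin to the lysosome for breakdown (chr10:46005088-46030623, minus strand), stood at 3635, 3571 and 3520.3 normalized counts untreated and 3604, 3448 and 3377 treated. Each treated sample was below its partner, and the groups overlapped through treated replicate 1. NCOA4 thus had a log2 fold change of -0.041 (SE 0.044, 95% confidence interval -0.13 to 0.051, limma adjusted p = 0.872).

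SLC40A1 encodes ferroportin, the iron exporter (chr2:189560590-189583758, minus strand), and was the lowest of the 10 genes, with 17 to 58 reads per library. It stood at 33.4, 56.1 and 17.6 normalized counts untreated and 30.9, 38.1 and 32.8 treated. The treated values all lay inside the wide untreated range. The limma log2 fold change was 0.069 (SE 0.33, 95% confidence interval -0.62 to 0.76, adjusted p = 0.979), while the treated mean of 33.9 ± 3.69 (SD, n = 3) was below the untreated mean of 35.7 ± 19.4 (SD, n = 3) and edgeR and DESeq2 without the block gave a negative fold change. DESeq2 with the block gave 0.035 on the log2 scale. No direction can be given for it at this depth.

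IREB2, which encodes iron regulatory protein 2 (chr15:78437431-78501453, plus strand), stood at 3008, 3079.9 and 2984 normalized counts untreated and 3158, 3166 and 2843 treated. Treated samples 1 and 2 were the highest of the 6 and treated sample 3 the lowest, with a log2 fold change of 0.013 (95% confidence interval -0.090 to 0.12, limma adjusted p = 0.971). FBXL5, the ubiquitin ligase subunit that senses iron and marks IREB2 protein for degradation (chr4:15604381-15681679, minus strand), had the same arrangement of samples.

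The FBXL5 level was 1417, 1390.5 and 1409 normalized counts untreated and 1481, 1467 and 1329 treated, with a log2 fold change of 0.019 (95% confidence interval -0.098 to 0.14, limma adjusted p = 0.965). ACO1 encodes iron regulatory protein 1, which doubles as cytosolic aconitase when it carries an iron-sulfur cluster (chr9:32384603-32454769, plus strand). Its level was 619, 595 and 606 normalized counts untreated and 599, 564 and 574 treated. Each treated sample was below its partner and the groups overlapped, with a log2 fold change of -0.068 (95% confidence interval -0.21 to 0.077, limma adjusted p = 0.860).

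**Figure D3:**
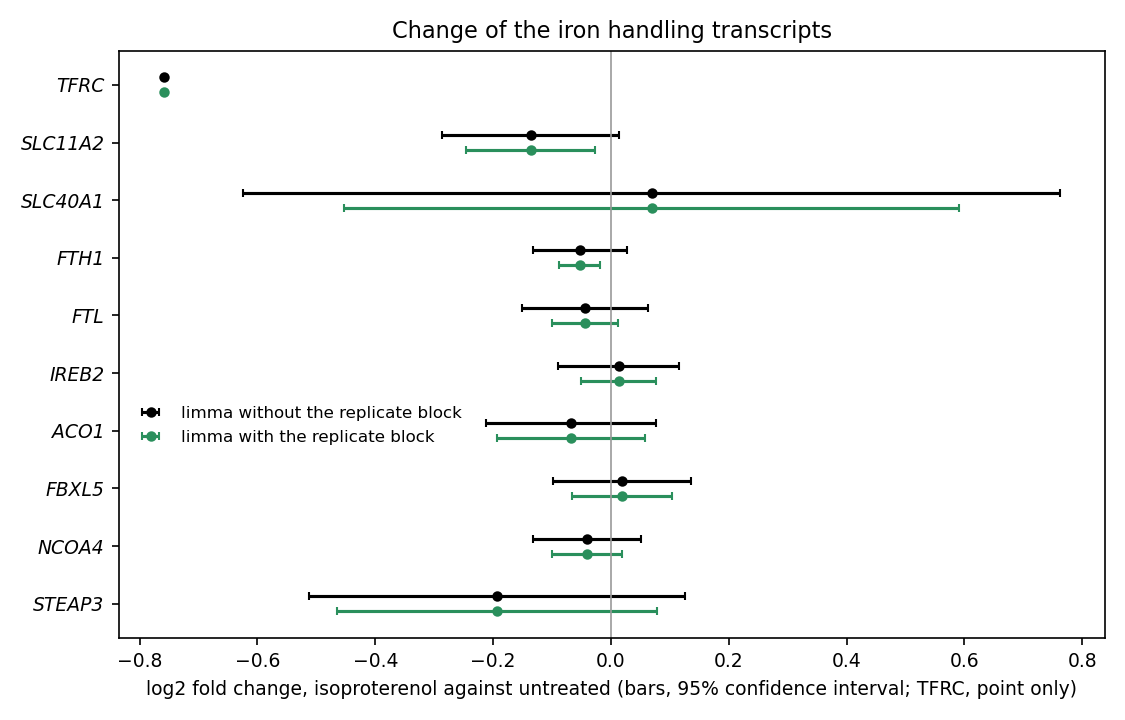
Fitted log2 fold change of each of the 10 genes, isoproterenol against untreated, with its 95% confidence interval from limma without (black) and with (green) the replicate block. TFRC, chosen for its fall, is drawn at -0.76 as a point with no interval, and SLC40A1 has the widest interval of the other 9 without the block, -0.62 to 0.76.

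Levels differed widely among the 10 genes. Per kilobase of the MANE Select transcript, the untreated means were 18218 ± 624 (SD, n = 3) normalized counts for FTH1 and 5064 ± 365 for FTL. NCOA4 at 1033 ± 16.6, IREB2 at 478 ± 7.86, FBXL5 at 403 ± 3.90 and TFRC at 260.5 ± 31.1 followed. SLC11A2 at 201.01 ± 10.7, ACO1 at 81.5 ± 1.62, STEAP3 at 30.4 ± 4.48 and SLC40A1 at 10.7 ± 5.82 were the lowest. No neighbours in this order overlapped over the 3 untreated samples. In the treated samples TFRC, at 153 ± 9.97 per kilobase, came below SLC11A2, at 183 ± 15.1, again without overlap. The order was otherwise the same. This change of place depends on the transcript lengths used and on the values for which TFRC was chosen. Before division by length the treated samples overlapped, at 711 to 804 normalized counts for TFRC and 685 to 802 for SLC11A2. IREB2 was above ACO1 in every library, with a ratio per kilobase of 5.72 to 6.09 untreated and 5.83 to 6.61 treated.

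**Figure D4:**
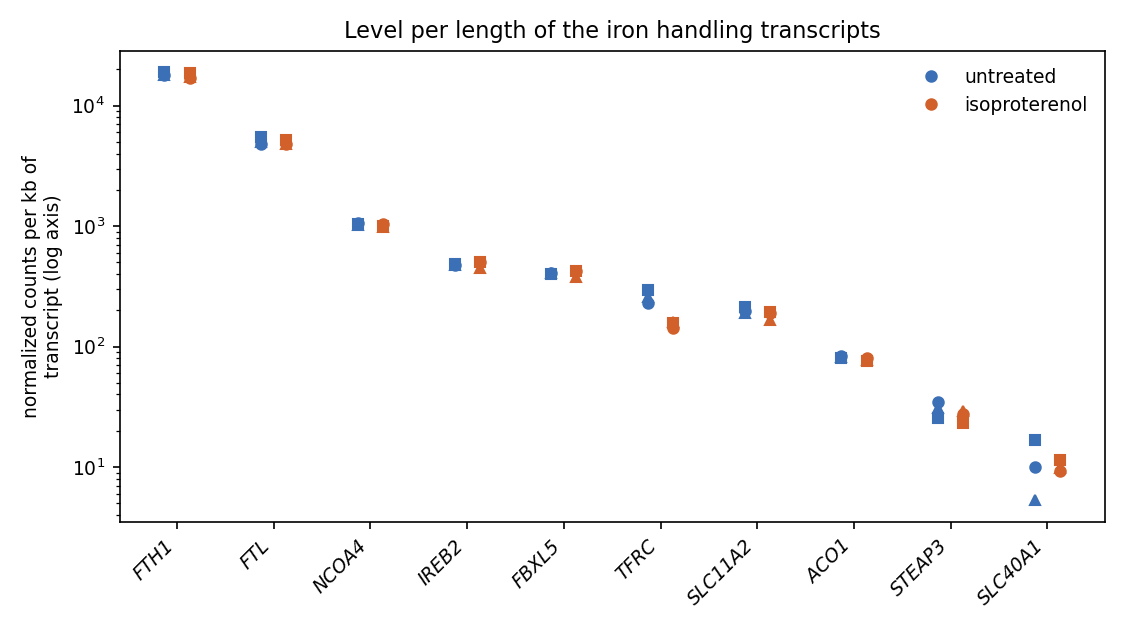
Normalized counts per kilobase of MANE Select transcript for the 10 genes, on a log axis, 1 point per sample, with colour by group and shape by replicate number. FTH1, at 17024 to 18935, stands highest and SLC40A1, at 5.28 to 16.9, lowest, and only TFRC and SLC11A2 change places between the groups.

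Other genes of iron metabolism were read from 7 lists (further uptake, export and systemic regulation, storage and chaperones, heme, mitochondrial iron and iron-sulfur assembly, cytosolic iron-sulfur assembly, and other transcripts with an iron-responsive element). Of 75 listed genes, 60 were tested, and 27 were higher and 33 lower with a median log2 fold change of -0.019. In limma 0 of 60 passed a false discovery rate of 0.05, against 0.0165% of all genes. An unadjusted p under 0.05 was found in 5 of 60, against 7.68% of all genes. edgeR and DESeq2 without the block also called 0, against 0.0165% and 0.116% of all genes. With the replicate block limma and edgeR each called 1 of 60, USP24, against 4.88% and 5.39% of all genes. DESeq2 with the block called 0, against 0.789%. Limma with the block gave 14 of 60 an unadjusted p under 0.05, against 16.2% of all genes. The groups did not overlap in 4 genes that were higher and 5 that were lower, of 60, against 6.73% and 6.19% of all genes.

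In the further uptake list, 4 of 8 tested genes were higher and 4 lower, with a median of 0.021. TFR2, a relative of TFRC that senses transferrin iron in the liver, stood at 186, 208 and 199 normalized counts untreated and 222, 277 and 232 treated. Its groups did not overlap, with treated values above untreated ones. TFR2 had a log2 fold change of 0.29 (SE 0.11), with a limma adjusted p of 0.571, and with the block of 0.0755.

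In the storage list, 4 of 7 tested genes were higher and 3 lower, with a median of 0.031. USP24, a deubiquitinating enzyme, stood at 4150, 3559.9 and 3829.6 normalized counts untreated and 4433, 3986 and 4052 treated. It was higher in all 3 pairs while its groups overlapped. Its log2 fold change was 0.11, with a limma adjusted p of 0.651 and, with the block, of 0.00712. The call with the block was lost without pair 2, and it stayed past the threshold without pair 1 (limma adjusted p = 0.0333) and without pair 3 (limma adjusted p = 0.0242).

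In the heme list 4 of 12 tested genes were higher and 8 lower, with a median of -0.015, and BLVRB, a biliverdin reductase, had a log2 fold change of -0.29 (limma adjusted p = 0.647) with groups that did not overlap. In the mitochondrial list 6 of 17 were higher and 11 lower, with a median of -0.050, and IBA57, an iron-sulfur cluster assembly factor, had the largest log2 difference at -0.20. In the cytosolic iron-sulfur list 5 of 9 were higher and 4 lower, with a median of 0.0011, and NDOR1, a reductase of that pathway, was at 0.18. In the export list all 4 tested genes were higher by fit, where 49.5% of all genes were lower. Their log2 fold changes were small, from 0.0073 to 0.045, with a median of 0.022. The largest, 0.045, was that of SLC48A1, a heme transporter, which was lower in pair 1. In the list of other transcripts with an iron-responsive element, CDC14A, a phosphatase, had a log2 fold change of -0.35 at 14.4 to 32.9 normalized counts. None of these genes passed in limma, edgeR or DESeq2, with or without the block, though DESeq2 with the block gave CDC14A no adjusted p.

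**Figure D5:**
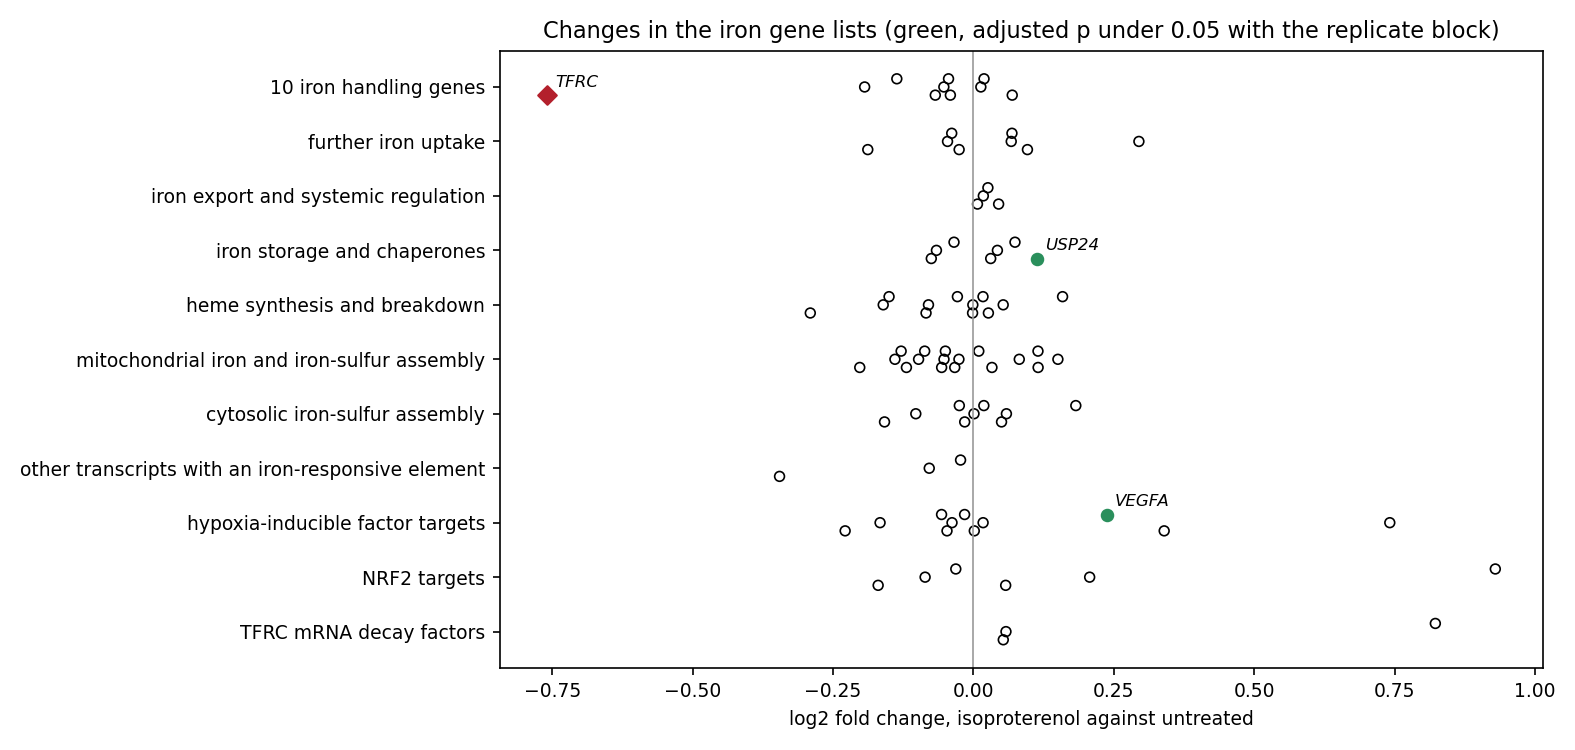
Log2 fold change of every tested gene in the 10 iron handling genes and in each further list, isoproterenol against untreated, with TFRC as a red diamond, genes of adjusted p under 0.05 in limma with the replicate block in green and all others as open circles. Most genes lie near 0, with USP24 at 0.11 and VEGFA at 0.24 as the genes in green.

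The genes whose pattern over the 6 samples was most like that of TFRC were sought among the same 11587 genes with means of 100 normalized counts or more, by the root-mean-square difference of log2 values centred on each gene's mean. They were CLEC2L (0.187), CCDC74B (0.187), SUSD2 (0.193), DSP (0.196) and PCDHB10 (0.196). Their Pearson correlation with TFRC over the same 6 samples was 0.909, 0.940, 0.919, 0.873 and 0.911. Since TFRC differs between the groups, genes found this way differ in the same direction by construction, and none of the 10 iron handling genes was among them.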

How the data were processed

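Poly(A) RNA was sequenced from 6 libraries prepared with a directional kit. The authors checked reads with FastQC, aligned them with STAR to GRCh38, counted them per gene with featureCounts and normalized the counts with DESeq2. The deposited signal values are counts divided by size factors. Tool versions, the annotation release and the strand and multi-mapping settings are not given in the sources used here. Every value was a whole number of reads times a constant per library (100% of values, tolerance 0.001), so reads were recovered for alternative count tests.

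Genes with more than 5 reads in at least 4 samples were kept (18130 of 19823). The test was limma 3.58.1 (trend, robust; R 4.3.3) on log2(normalized count + 1), treated against untreated, with Benjamini-Hochberg adjustment over all genes tested. Fold changes on this scale understate the change of low genes. Alternatives were TMM and total-count scaling, the replicate block, edgeR 4.0.16 (quasi-likelihood) and DESeq2 1.42.0 with and without the block, a pseudocount of 5, no filter, a mean limit of 50 and leaving out each sample. The scripts were tested on simulated data. Same-numbered samples deviated together (correlation of deviations from group means 0.269, 0.493 and 0.388 over 11587 genes), so replicate numbers were treated as pairs. No shared batch or day is named in the labels.

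The 10 genes and all lists were chosen with earlier results of these data known. From each further list the genes named were those past an adjusted p of 0.05 with or without the block, or else the one with the largest absolute log2 fold change at a mean of at least 10 normalized counts, plus the 3 most abundant ferritin pseudogenes, the 5 genes most like TFRC and RBM12. Positions, transcript lengths and sequences came from GENCODE 44, in which 99.6% of the gene identifiers were found. Listed genes outside the table were not analysed here, among them all 5 microglia and all 5 erythroid markers.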

Additional observations from a re-analysis of the deposited data

How the results depend on the processing

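TFRC was lower in all 19 other settings, with log2 fold changes from -0.85 to -0.67. It was chosen for its fall in these same samples, whose groups did not overlap for it, so this is a description and adds no support. Of the other 9 iron handling genes, 0 passed a false discovery rate of 0.05 in any setting. SLC40A1 was not among them under a mean limit of 50, where 8 of the 9 were tested, and DESeq2 with the block gave it no adjusted p. The number of genes called over the whole table did depend on the setting. It was 3 in the reported fit, 885 with the replicate block, 977 in edgeR with the block, 21 in DESeq2 and 143 in DESeq2 with the block. Leaving out 1 sample gave 2 to 67, with 67 without isoproterenol replicate 2, 7 without untreated replicate 2 or isoproterenol replicate 1, and 6 without isoproterenol replicate 3. The blocked fit without a pair of samples, an alternative chosen after seeing the data, gave 531, 665 and 456 without pairs 1, 2 and 3. The wider iron lists held 0 called genes in the reported fit, 1 with the block, 1 in edgeR with the block, 0 in every fit that left out 1 sample, and 1, 0 and 2 in the blocked fit without pairs 1, 2 and 3. The cause of these differences was not tested.

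Signs turned where values were near 0. SLC40A1 stood at -0.091 in edgeR, -0.024 in edgeR with the block, -0.084 in DESeq2, 0.035 in DESeq2 with the block and -0.35 to 0.46 on leaving out 1 sample (-0.35 without untreated replicate 3, -0.014 without isoproterenol replicate 2), and at -0.33 in the blocked fit without pair 3. On leaving out 1 sample, FTL ranged from -0.086 to 0.013 (positive without untreated replicate 2), and IREB2 from -0.013 to 0.064 and FBXL5 from -0.0092 to 0.069 (both negative without isoproterenol replicate 1 or 2). CCNB1 ranged from -0.079 to 0.12 (negative without untreated replicate 2, and at -0.017 without isoproterenol replicate 1), and FTH1P8 from -0.23 to 0.084 (positive without isoproterenol replicate 2). The FTH1 to FTL log2 ratio difference ranged from -0.037 to 0.017, positive without untreated replicate 1. The blocked fit gave IREB2 -0.015 without pair 1, FBXL5 -0.0033 without pair 1 and -0.010 without pair 2, and, without pair 2, SLC48A1 -0.0070, CCNB1 -0.092 and FTH1P8 0.12.

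Taking the pairing of replicate numbers into the fit changed the limma call of USP24, VEGFA, GRIN1 and NEFL, and the edgeR call of USP24, VEGFA, GRIN1 and FTH1P2. It changed no other limma or edgeR call among the genes named, leaving aside TFRC and the 5 genes picked for a pattern like it, which were given no test. For the FTH1 to FTL ratio compared within pairs, the exact sign-flip p was 0.75, where 3 pairs can give no p below 0.25. Among the 10 iron handling genes depth limits SLC40A1 most, at 17 to 58 reads per library.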

Other observations

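Hypoxia-inducible factor targets and NRF2 targets, which respond to oxygen, iron and oxidative state in many cells, were read from lists of their own. Of 11 tested hypoxia-inducible factor targets 5 were higher and 6 lower, with a median log2 fold change of -0.016. VEGFA, a growth factor for blood vessels, stood at 433, 411 and 436 normalized counts untreated and 459, 464 and 598 treated. Its treated values all lay above the untreated ones, and treated replicate 3 was the highest. The log2 fold change was 0.24, with a limma adjusted p of 0.588 and, with the replicate block, of 0.0350, and the call with the block was lost without pair 3. With the block its adjusted p was 0.0231 in edgeR and 0.697 in DESeq2. Of 6 NRF2 targets 3 were higher and 3 lower, and SRXN1, which encodes sulfiredoxin, had the largest log2 difference at 0.93 (limma adjusted p = 0.509, 0.0767 with the block), at 10.4 to 33.9 normalized counts. By limma 0 genes of either list passed without the block, against 0.0165% of all genes. An unadjusted p under 0.05 was found in 2 of 11 and 1 of 6, against 7.68% of all genes. edgeR and DESeq2 without the block called 0, against 0.0165% and 0.116%. With the block limma and edgeR each called 1 of 11 and 0 of 6, against 4.88% and 5.39% of all genes. DESeq2 with the block called 0, against 0.789%.

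Of 6 listed proteins that act on the decay of TFRC mRNA, 3 were tested. All 3 had positive log2 fold changes, where 49.5% of all genes were lower. The largest, ZC3H12A, named after its values were seen, was at 0.82. It stood at only 1.94 to 13.8 normalized counts and was lower in pair 3. RC3H2 (Roquin-2) was at 0.058 (limma adjusted p = 0.827, 0.389 with the block). None of the 3 passed in limma or edgeR, with or without the block. DESeq2 called none of them either, but gave ZC3H12A no adjusted p. In limma 0 of 3 had an unadjusted p under 0.05, against 7.68% of all genes, and with the block 0 of 3, against 16.2%.

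Of the 10 listed neuron markers, 8 were higher and 2 lower, where 49.5% of all genes were lower. Without the block 0 passed in limma, edgeR or DESeq2, against 0.0165%, 0.0165% and 0.116% of all genes. In limma 1 of 10 had an unadjusted p under 0.05, against 7.68%. With the block limma called 2 of 10, against 4.88% of all genes. edgeR with the block called 1, GRIN1 (edgeR adjusted p = 1.44e-04), against 5.39%, and DESeq2 called 0, against 0.789%. In the limma fit with the block GRIN1, an NMDA receptor subunit, was higher by 0.29 on the log2 scale (limma adjusted p = 2.67e-04, 0.134 in DESeq2 with the block). NEFL, a neurofilament subunit, was at -0.045 (limma adjusted p = 2.68e-04, 0.0817 in edgeR and 0.753 in DESeq2 with the block). GRIN1 was higher and NEFL lower in all 3 pairs, and the groups did not overlap for either gene. Among markers of other cells MBP, a myelin protein gene named after its values were seen, had the highest level, at 942, 913 and 956 normalized counts untreated and 1085, 972 and 1015.5 treated. It was higher in all 3 pairs and its groups did not overlap, with a log2 fold change of 0.13 (limma adjusted p = 0.650, 0.142 with the block). Its part in the results was not tested. AQP4 was at -0.27 on the log2 scale, LIN28A at -0.32 (9.23 to 18.6 normalized counts), MOG at 0.69 (4.14 to 16.4 normalized counts) and CCNB1 at 0.034. None of these 5 markers passed in limma with or without the block.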
